A study of Mus musculus with 4 samples.

Results

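The 10 genes described here, Fkbp5, Tsc22d3, Zbtb16, Sgk1, Errfi1, Cdkn1a, Pdk4, Angptl4, Mt1 and Mt2, are induced by glucocorticoid stress hormones in many tissues. They were chosen by gene symbol from the platform annotation, as 10 of 19505 named genes, and each had 1 probe set among the 22206 on the array. The question was whether cerebellum arrays from mice that ran on a rotarod carry a common stress hormone response, and whether it differs after the neonicotinoid insecticide clothianidin. Samples came from cerebella of male C57BL/6N mice aged 10 weeks. The vehicle group (n = 2, replicates 7 and 9) received vehicle by mouth for 4 days, and the clothianidin group (n = 2, replicates 6 and 7) received clothianidin at 50 mg per kg per day for the same time, a dose that the series title places at the no-observed-adverse-effect level. Both groups did the rotarod test, a measure of motor coordination, over those days, and brains were taken straight after it. No sample without rotarod running was analysed here, so a response that both groups share has no baseline to be measured against.

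Glucocorticoids such as corticosterone are released by the adrenal cortex when the hypothalamus and pituitary signal through CRH and ACTH. They enter cells and bind the glucocorticoid receptor (Nr3c1) or the mineralocorticoid receptor (Nr3c2), which leave their chaperones, move to the nucleus and act on target genes through response elements in DNA. Several targets damp the response: FKBP51 lowers the affinity of the receptor for hormone, and GILZ, the product of Tsc22d3, restrains inflammatory transcription. In the brain many of these targets are most prominent in glia and blood vessels, and Mt1 and Mt2 also answer to zinc and other metals.

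Promoter windows from RefSeq (build GRCm38.p6, 250 bases before to 50 after a gene start) were found for 8 of the 10 genes, with 17 windows in all because some genes have several starts. Windows of Sgk1, Mt1 and Mt2 are shown because each held a match to the element marked in it, so they were picked for their matches. Of the Sgk1 starts only the one shown held the marked element. Mt1 and Mt2 are neighbours on chromosome 8. In the Sgk1 window (chr10:21993640-21993939, plus strand, the fifth of its 6 starts) capitals mark a match to the palindromic glucocorticoid response element, GNACA and TGTNC with any 3 bases between them. In the Mt2 (chr8:94172368-94172667, plus strand) and Mt1 (chr8:94178839-94179138, plus strand) windows capitals mark matches to the metal response element core, TGCACNC or TGCGCNC on either strand.
Sgk1: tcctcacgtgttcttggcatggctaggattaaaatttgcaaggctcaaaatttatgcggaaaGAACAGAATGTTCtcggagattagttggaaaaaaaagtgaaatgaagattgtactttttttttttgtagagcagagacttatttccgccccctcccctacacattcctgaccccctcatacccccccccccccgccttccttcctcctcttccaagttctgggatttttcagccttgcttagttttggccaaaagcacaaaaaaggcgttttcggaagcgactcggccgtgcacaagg
Mt2: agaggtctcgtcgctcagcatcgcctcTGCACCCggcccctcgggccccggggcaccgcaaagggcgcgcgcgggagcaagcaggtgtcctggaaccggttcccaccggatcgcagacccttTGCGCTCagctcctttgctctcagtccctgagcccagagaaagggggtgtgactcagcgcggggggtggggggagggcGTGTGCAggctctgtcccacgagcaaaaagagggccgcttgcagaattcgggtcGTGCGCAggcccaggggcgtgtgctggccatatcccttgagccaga
Mt1: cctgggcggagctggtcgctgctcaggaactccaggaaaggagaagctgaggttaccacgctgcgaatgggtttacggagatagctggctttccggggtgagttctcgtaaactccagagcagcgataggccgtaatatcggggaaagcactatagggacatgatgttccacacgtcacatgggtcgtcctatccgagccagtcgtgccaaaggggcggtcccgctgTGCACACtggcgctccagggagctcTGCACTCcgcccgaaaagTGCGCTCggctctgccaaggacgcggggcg
The palindromic element lay in the windows of Sgk1 and Mt1, as GAACAGAATGTTC and GGACATGATGTTC, and in 2 of the 17 windows, against 0.475% of all 32851 promoter windows of this length. In Sgk1 it started 188 bases before the gene start and overlapped both copies of its single arm AGAACA that flank the centre. In Mt1 it started 94 bases before the start. That single arm, read on both strands, was in 4 of the 17 windows, belonging to Sgk1 and Tsc22d3, against 19.0% of all windows. The metal core had 4 matches in the Mt2 window and 3 in the Mt1 window. It was in 3 of the 17 windows, the other one belonging to another Sgk1 start, against 25.7% of all windows. These are matches of letters only. The Fkbp5, Tsc22d3, Cdkn1a, Errfi1, Pdk4 and Mt2 windows held no palindromic match, which says nothing on elements outside them. Zbtb16 and Angptl4 had no window to search.

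The 10 genes did not shift together between the groups. With clothianidin 4 were higher and 6 lower, where 48.4% of all probe sets were higher and 51.6% lower. The median log2 difference was -0.12, beside -0.01 over all probe sets, and it was -0.31 without clothianidin replicate 6 and 0.02 without clothianidin replicate 7. None passed limma at an adjusted p of 0.05, where 0% of all probe sets were called, and every one of the 10 had a limma adjusted p of 0.997. None passed at an unadjusted limma p of 0.05 either, where 4.23% of all probe sets did. Groups did not overlap for Mt2, which was higher (15.1% of all probe sets did so in that direction), and for Cdkn1a and Angptl4, which were lower (15.5%). That is 3 of 10, or 30%, beside a background of 30.6% of all probe sets. Angptl4 alone was also at least 1.5-fold apart, beside 7.61% of all probe sets. With 2 arrays against 2, an exact permutation test of a single value cannot go below a two-sided p of 0.333. In bulk tissue, fewer cells of a type and less RNA per cell cannot be told apart.

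**Figure D1:**
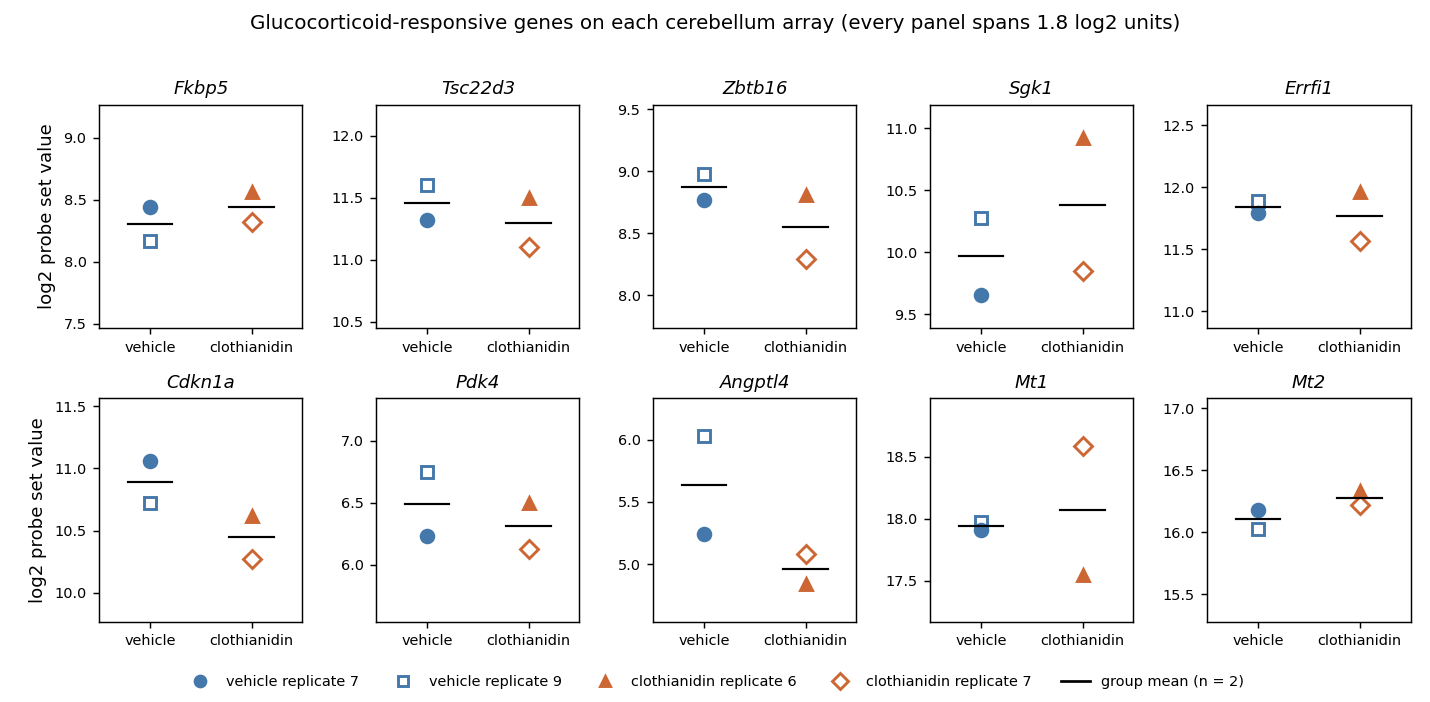
Log2 probe set value (vertical axis, 1.8 log2 units in every panel, at a different level in each) of the 10 genes on the 2 vehicle and 2 clothianidin arrays, with the group mean as a bar. Sgk1 and Mt1 spread most between the clothianidin arrays, by 1.07 and 1.04, and the groups are apart only for Cdkn1a, Angptl4 and Mt2.

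The spread between arrays of one group was as large as the differences between groups. For 8 of the 10 genes the arrays of at least one group lay further apart than the group means did, as was so for 79.9% of all probe sets. The median gap between the vehicle arrays was 0.27 over the 10 genes and 0.32 over all probe sets. Between the clothianidin arrays it was 0.38 and 0.31. The median absolute difference between groups was 0.17 over the 10 genes and 0.215 over all probe sets.

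**Figure D2:**
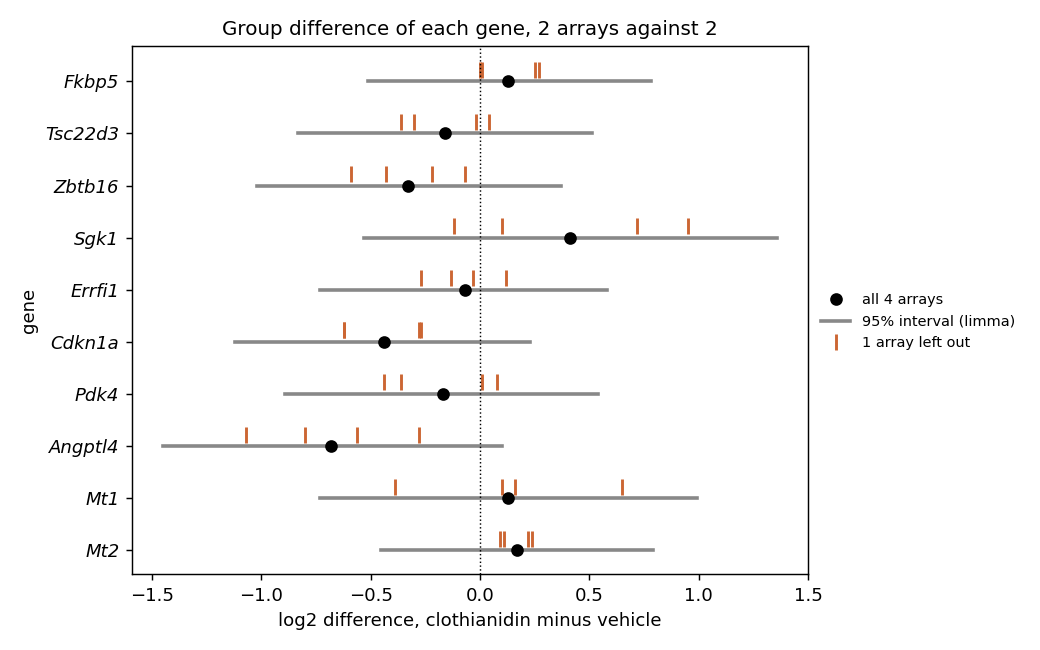
Log2 difference between clothianidin and vehicle (horizontal axis) for each gene (vertical axis), with limma's 95% interval in grey and the 4 values with 1 array left out as orange ticks. Every interval includes 0, and the ticks for Sgk1 run from -0.12 to 0.95.

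Fkbp5 is the target most used as a readout of glucocorticoid receptor activity and encodes the co-chaperone FKBP51. The vehicle arrays gave log2 values of 8.44 and 8.17, the clothianidin arrays 8.56 and 8.32. The 4 values interleave, so no array stands apart by this gene. The difference was 0.13 with a standard error (SE) of 0.28 (limma 95% interval -0.51 to 0.78), so these arrays leave room for anything from a fold of 0.702 to one of 1.72.

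The receptors themselves and their chaperones were measured by 15 of 19 listed genes. Under clothianidin 11 of these were higher and 4 lower, with a median log2 difference of 0.10, and 0 passed limma over all probe sets. Nr3c1, the glucocorticoid receptor gene, was at 8.96 and 8.67 under vehicle against 9.79 and 8.98 under clothianidin. These groups did not overlap, by a margin of 0.02 between the nearest arrays, and the log2 difference was 0.57 (SE 0.34, limma adjusted p = 0.997). Nr3c2, the mineralocorticoid receptor gene, was at 9.87 and 9.94, then at 10.40 and 9.82. Both receptors were highest on clothianidin replicate 6. Fkbp4, whose product FKBP52 opposes FKBP51 on the receptor, had a log2 difference of 0.02. Hsd11b1, which regenerates active hormone inside cells, had one of 0.18. Of the steroid receptor coactivator genes Ncoa1 had a log2 difference of 0.42 and Ncoa2 one of -0.54, and the p23 co-chaperone gene Ptges3 had one of 0.39 (limma adjusted p = 0.997 each).

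Of the genes that send the hormone signal, 11 of 11 listed were measured, with 3 higher, 8 lower and a median log2 difference of -0.24. None passed the adjusted threshold. Groups did not overlap for 6 of the 11 (30.6% of all probe sets), 5 of them lower (15.5%). Crhbp, the CRH-binding protein gene, was at 4.81 and 4.80 under vehicle against 4.18 and 4.13 under clothianidin. Crh was at 4.60 and 4.96, then at 4.50 and 4.05, and Crhr2 was at 5.16 and 5.09, then at 4.54 and 4.75. The vasopressin receptor gene Avpr1a had a log2 difference of -0.44. These levels are low. Olfactory and vomeronasal receptor probe sets (1414 of them), which serve here as a guide to transcripts not made in cerebellum, had a median of 4.18 and a 95th percentile of 6.09, and 1 of the 11 genes had a mean above that percentile. It was Crhr1, the main CRH receptor gene of the cerebellum, at 12.44 and 11.68 under vehicle against 12.40 and 11.52 under clothianidin, where each group holds a high and a low array.

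Tsc22d3 and Zbtb16 encode transcriptional regulators. Tsc22d3 was at 11.32 and 11.60 under vehicle against 11.50 and 11.10 under clothianidin. Its difference was -0.16 (SE 0.29, 95% interval -0.83 to 0.51). Zbtb16, the gene of the zinc finger repressor PLZF, was at 8.77 and 8.98, then at 8.81 and 8.29. The first clothianidin array lies inside the vehicle range and the second below it, and the difference was -0.33 (SE 0.30, 95% interval -1.02 to 0.37). Without clothianidin replicate 7 it was -0.07.

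Sgk1 and Errfi1 encode signalling proteins, a kinase that acts on ion channels and transporters and an inhibitor of the EGF receptor family. Sgk1 was at 9.66 and 10.28 under vehicle against 10.92 and 9.85 under clothianidin. Its highest array was clothianidin replicate 6 and its lowest vehicle replicate 7, so the spread of 1.26 over the arrays, the largest of the 10 genes, did not follow the groups. Only 3.73% of all probe sets had a gap between the clothianidin arrays at least as large as its 1.07. The difference was 0.41 (SE 0.41, 95% interval -0.53 to 1.36), and it was 0.95 without clothianidin replicate 7 and -0.12 without clothianidin replicate 6.
Of 7 genes of SGK relatives and substrates 1 was higher and 5 lower, with a median of -0.10. Sgk3, a related kinase gene, was at 7.67 and 7.54 under vehicle against 7.73 and 8.34 under clothianidin, and Nedd4l, the ubiquitin ligase gene whose product SGK1 phosphorylates, was at 13.21 and 13.30, then at 13.60 and 12.57. Nedd4l, like Sgk1, was higher on clothianidin replicate 6 than on replicate 7.
Errfi1 was at 11.79 and 11.89 under vehicle against 11.96 and 11.57 under clothianidin, a difference of -0.07 (SE 0.28). Among 13 genes of EGF receptors, ligands and feedback regulators 6 were higher and 7 lower, with a median of -0.01. The log2 difference was 0.50 for the neuregulin receptor gene Erbb4 and -0.23 for its ligand gene Nrg1.

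Cdkn1a encodes the cell cycle inhibitor p21, which both glucocorticoids and p53 induce. It was at 11.06 and 10.72 under vehicle against 10.62 and 10.27 under clothianidin. Both clothianidin arrays were below both vehicle arrays, by 0.10 between the nearest. The difference was -0.44 (SE 0.29, 95% interval -1.12 to 0.23), and 18.5% of all probe sets differed by at least as much. Of 15 measured p53 targets 7 were higher and 8 lower, with a median of -0.07. The log2 difference was 0.57 for Sesn1 and 0.76 for the death receptor gene Fas, while Sesn2 and the antiproliferative gene Btg2 had differences of -0.59 and -0.42 (limma adjusted p = 0.997 each). Fas and Sesn2 lay below the receptor percentile of 6.09 on all 4 arrays, so their differences are uncertain. The 6 other inhibitors of cyclin-dependent kinases had log2 differences from -0.16 (Cdkn1b) to 0.17 (Cdkn2c), and 2 of the 6, Cdkn1b and Cdkn2d, had a mean above that percentile. The oligodendrocyte marker list had a median deviation of 0.21 and -0.04 under vehicle against -0.08 and -0.22 under clothianidin, where Cdkn1a deviated by 0.39, 0.05, -0.05 and -0.40. Of the single markers only Fa2h fell in that order over the arrays, at 12.02, 11.51, 11.24 and 11.21. Mbp and Myrf, for example, were highest on clothianidin replicate 6 and Aspa on clothianidin replicate 7. Of the 14 measured genes 12 were lower, 0 passed limma and groups did not overlap for 4 (28.6%, beside 30.6% of all probe sets). The list's mean level was 12.32 and 12.09 under vehicle against 12.01 and 11.90 under clothianidin, and all 14 were above the receptor percentile of 6.09. Its part in the Cdkn1a values was not tested.

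Pdk4 and Angptl4 steer fuel use and answer to fatty acid sensing PPAR receptors as well as to glucocorticoids. Pdk4, whose product shuts pyruvate out of the citric acid cycle, was at 6.23 and 6.75 under vehicle against 6.50 and 6.13 under clothianidin. The groups overlapped, with a difference of -0.17 (SE 0.31, 95% interval -0.89 to 0.54). Its lowest value, 6.13, was close to the receptor percentile of 6.09. Of 7 other genes of pyruvate dehydrogenase and its regulators 6 were higher, with a median of 0.33. Pdk3, a related kinase gene, was at 8.10 and 7.96, then at 8.50 and 8.57. It was the only one of the 7 without overlap (14.3%, beside 30.6% of all probe sets). Its log2 difference was 0.51.
Angptl4, a secreted inhibitor of lipoprotein lipase, was at 5.24 and 6.03 under vehicle against 4.84 and 5.08 under clothianidin. Both clothianidin arrays were lower than both vehicle arrays, and vehicle replicate 9 stood highest. The difference of -0.68 (SE 0.34, 95% interval -1.45 to 0.10) was the largest in size of the 10 genes, and 5.8% of all probe sets differed by at least as much. It was -0.28 without vehicle replicate 9. All 4 values lay below the receptor percentile of 6.09, so Angptl4 was not shown to be above background and a fold from it is uncertain.
Lpl, the gene of the lipase that ANGPTL4 inhibits, was at 7.33 and 8.58 under vehicle against 6.75 and 6.85 under clothianidin, with a log2 difference of -1.16 (limma adjusted p = 0.997). It too was highest on vehicle replicate 9. Gpihbp1, whose product anchors the lipase to capillaries, was at 5.87 and 5.65, then at 5.49 and 4.78. Of 6 measured lipase and ANGPTL genes 4 were lower and 2 higher, with a median of -0.22, and Lpl alone had a mean above the receptor percentile.
Of 18 measured genes of the PPAR and fasting list 11 were higher and 7 lower, with a median of 0.19, and groups did not overlap for 9 (30.6% of all probe sets), of which 6 were higher (15.1%). Cpt1a, the gatekeeper of mitochondrial fatty acid import, was at 7.55 and 7.74 under vehicle against 8.23 and 8.12 under clothianidin. Acadm, a fatty acid oxidation gene, was at 8.69 and 9.40, then at 9.63 and 9.60. None of the 18 passed limma.

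Mt1 and Mt2 encode metallothioneins, small cysteine-rich proteins that bind zinc and copper. By their RefSeq gene spans they lie 5315 bases apart on chromosome 8. The Mt1 span opens at base 94178883, upstream of the start that its promoter window uses. Mt2 varied least of the 10 genes over the arrays, by 0.30, and was at 16.18 and 16.03 under vehicle against 16.33 and 16.22 under clothianidin. Its groups did not overlap, but the nearest arrays were 0.04 apart and the difference was 0.17 (SE 0.27, 95% interval -0.45 to 0.79).
Mt1 was at 17.91 and 17.97 under vehicle against 17.55 and 18.59 under clothianidin. The clothianidin arrays lay on either side of the vehicle arrays, 1.04 apart where the vehicle arrays were 0.06 apart, and 4.17% of all probe sets had so large a gap between the clothianidin arrays. The difference was 0.13 (SE 0.37, 95% interval -0.73 to 0.99). It was 0.65 without clothianidin replicate 6 and -0.39 without clothianidin replicate 7. Mt2 did not follow Mt1 within the clothianidin group. Its arrays there were only 0.11 apart, and 81.4% of all probe sets had a gap at least as large. A probe for one paralog may also catch the transcript of the other, and this was not tested. The related gene Mt3 was at 12.22 and 11.97 under vehicle against 11.86 and 12.80 under clothianidin. Like Mt1, it was highest on clothianidin replicate 7 and lowest on replicate 6.
Of 11 other genes of the metal and oxidant response 7 were higher and 4 lower, with a median of 0.16. Mtf1, the zinc-sensing factor that drives Mt1 and Mt2, was at 10.08 and 10.43 under vehicle against 9.80 and 9.65 under clothianidin. Hmox1, the heme oxygenase gene, had a log2 difference of -0.31 and Txnrd1 one of 0.27.

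A pair of choroid plexus markers was high on clothianidin replicate 7, where Mt1 was highest. Ttr was at 13.96 there and at 5.67 to 6.38 on the other arrays, Kcnj13 was at 8.92 against 6.73 to 6.99, and 5 of 12 measured choroid plexus markers were highest on that array, where 21.1% of all probe sets were highest. Others, Otx2 (7.38), Slc4a5 (5.56) and Aqp1 (4.23), were lowest there. The mean level of the list was 5.72 and 5.53 under vehicle against 5.66 and 6.61 under clothianidin, and 4 of the 12 had a mean above the receptor percentile. Without Ttr it was 5.72 and 5.51, then 5.59 and 5.94. Other lists had genes highest on that array too, such as 5 of 14 endothelial genes and 4 of 7 genes of pyruvate dehydrogenase control. The endothelial gene Itm2a was at 12.11 there and at 9.81 to 10.80 on the other arrays. The part of any of these lists in the Mt1 value was not tested. Markers of Bergmann glia and astrocytes, the cells where metallothioneins are most prominent, had 8 of 15 genes higher. Their mean level was 13.52 and 13.45 under vehicle against 13.55 and 13.59 under clothianidin. On clothianidin replicate 7, 4 of the 15 were highest and 3 lowest. Fabp7 was at 12.61 there against 10.51 to 11.53 elsewhere, and Hopx at 12.48 against 11.50 to 11.98. The remaining lists gave median log2 differences of -0.01 (endothelial, 6 of 14 higher), -0.05 (pericyte and smooth muscle, 4 of 10), -0.14 (microglia, 3 of 11), 0.13 (meninges and fibroblasts, 7 of 11) and -0.27 (blood, 2 of 6). All 9 measured genes that define cerebellar neurons were above the receptor percentile, at mean levels of 16.05 to 16.60 per array. Of these 6 were higher, with a median log2 difference of 0.15. Groups did not overlap for 4, all higher (15.1% of all probe sets), and 3 of them were at least 1.5-fold apart (7.61% in either direction). Those 3 were Zic2, Pcp2 and Calb1, with log2 differences of 0.96, 0.68 and 0.66 (limma adjusted p = 0.997 each).

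As a set, the 10 genes did not sort the single arrays by group, and only Cdkn1a, Angptl4 and Mt2 kept the groups apart. Clothianidin replicate 7 had 5 of the 10 genes at their lowest (Tsc22d3, Zbtb16, Errfi1, Cdkn1a and Pdk4), where 23.9% of all probe sets were lowest. The median deviation of the 10 genes from their own means was -0.04 and 0.09 under vehicle, against 0.11 (replicate 6) and -0.25 (replicate 7) under clothianidin. Over all probe sets it was 0.02 and -0.03 under vehicle, against -0.01 and -0.01 under clothianidin. Sgk1 was low on clothianidin replicate 7 as well, at a deviation of -0.33, while Mt1 was at 0.59. On vehicle replicate 9 and on clothianidin replicate 6, 7 of the 10 genes were above their own mean. So an array of each group had most of these genes on the high side, and no array had all 10 high or all 10 low. The share of all probe sets above their own mean on each array was not counted.

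**Figure D3:**
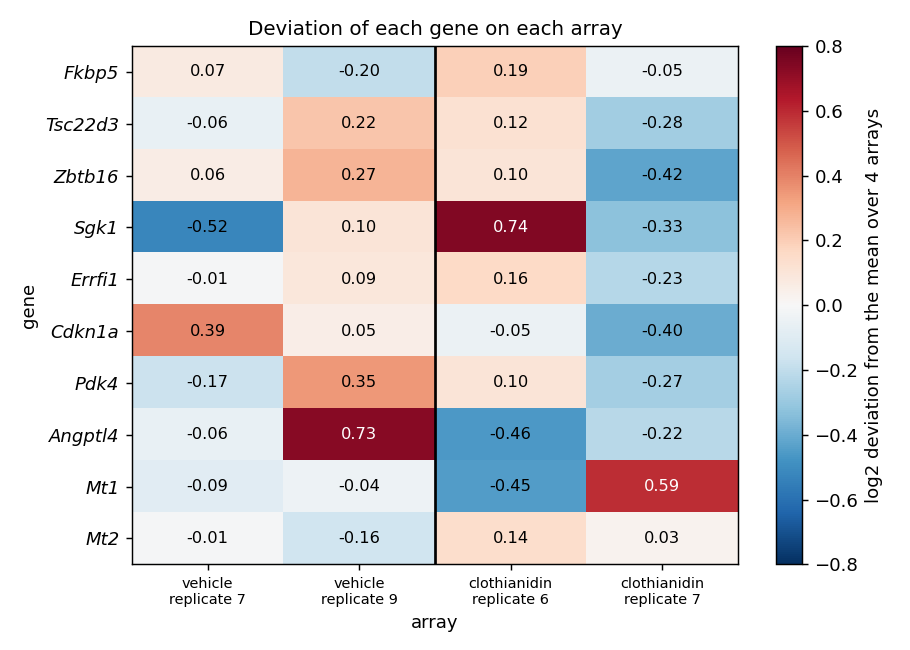
Log2 deviation of each gene (rows) from its own mean over the 4 arrays (columns), red above and blue below the mean, with the value printed in each cell. Clothianidin replicate 7 is blue for 8 of the 10 genes, with Mt1 at 0.59 as the largest exception, while clothianidin replicate 6 is red for 7.

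A wider list of 36 glucocorticoid targets, of which 32 were measured, gave a like picture. Under clothianidin 14 were higher and 18 lower, the median log2 difference was -0.07, and 0 passed limma over all probe sets. Groups did not overlap for 9 of the 32, or 28.1%, near the 30.6% of all probe sets. Their median deviation was 0.08 and -0.10 under vehicle, against 0.15 (replicate 6) and -0.13 (replicate 7) under clothianidin, so here too the clothianidin arrays lay apart. The median difference was 0.12 without clothianidin replicate 7, 0.09 without vehicle replicate 7 and -0.15 without clothianidin replicate 6. Dusp1, a phosphatase gene that both hormone and neuronal activity induce, was at 14.92 on both vehicle arrays and at 14.09 and 14.02 with clothianidin, a log2 difference of -0.86 (SE 0.27, limma adjusted p = 0.997). The log2 difference was -0.73 for Ehd3, an endocytic recycling gene, -0.50 for the transglutaminase gene Tgm2, and 0.61 for Irs2, an insulin receptor substrate gene. Tgm2 lay below the receptor percentile of 6.09 on every array, so its difference is uncertain. Of the 32 genes 23 had a mean above that percentile.

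Among those 32 genes the one nearest to Fkbp5 in its values over the 4 arrays, after each gene was centred on its mean, was Klf9, a hormone-induced transcription factor gene. Klf9 was at 14.21 and 13.98 under vehicle against 14.32 and 14.06 under clothianidin. The root mean square difference was 0.0255 on the log2 scale, and 0.0946% of all probe sets, 21 in number, were as near. For Sgk1 the nearest was the clock gene Per1, at 9.41 and 10.10, then at 10.36 and 9.43, with a root mean square difference of 0.148, where 61 probe sets were as near. Per1 and Sgk1 both had their highest value on clothianidin replicate 6 and their lowest on vehicle replicate 7. For Tsc22d3 the nearest was Plin4, with 0.0738, but its values of 3.99 to 4.36 lie at the level of the olfactory receptors. These are likenesses over 4 arrays, where many probe sets come close.

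**Figure D4:**
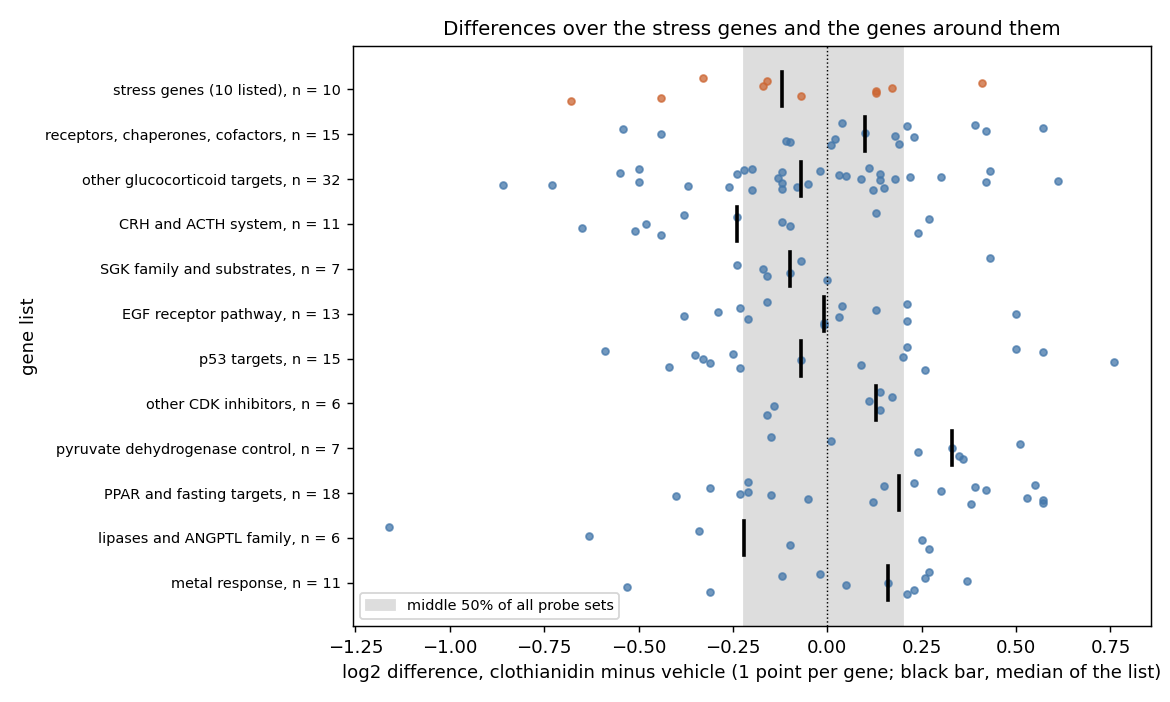
Log2 difference between clothianidin and vehicle (horizontal axis), 1 point per measured gene, for the 10 stress genes in orange and 11 lists of genes around them in blue (vertical axis), with the median of each list as a black bar. The medians run from -0.24 for the CRH and ACTH system to 0.33 for pyruvate dehydrogenase control, and the grey band, -0.22 to 0.20, holds the middle of all probe sets.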

How the data were processed

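Total RNA (250 ng, integrity number over 7) was amplified and hybridised to 4 Affymetrix whole-transcript arrays, per the labels' protocols. The deposited log2 values are RMA probe set summaries of the authors, per the submitters' processing notes. Neither RMA's version nor its settings are given in the sources used here, and the log base was taken as 2. RMA equalises the arrays' distributions (array medians 6.49 to 6.54), so a global shift would be removed. No scanner files were used here, so detection calls are unknown and the number of arrays limits the precision.

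Groups came from titles. The labels do not say that samples of a group came from separate animals, so p-values reflect only the spread among these arrays, which could be technical. Gene names came from the platform table, with 0 symbols changed by RefSeq identifiers; 2634 probe sets were not named, and 29 listed names had no probe set here. The members and lists were chosen with earlier results of these data known. Differences were fitted over all 22206 probe sets with limma 3.58.1 (R 4.3.3), eBayes and Benjamini-Hochberg adjustment (5.96 prior and 2 residual degrees of freedom). In simulated data with 200 changed probe sets in each of 10 runs, 0.8% of log2 changes of 1, 68.6% of 2 and 96% of 3 were recovered. Genes of the pathway and family lists were named by rule: Nr3c1, Nr3c2, Fkbp4, Hsd11b1, Crhr1 and up to 4 per list with the smallest p. The nearest of the wider targets to Fkbp5, Sgk1 and Tsc22d3 were named too. Cdkn2d, Mt3 and the single cell type markers were not held to this rule. Cnp and Folr1, with the smallest p of the oligodendrocyte and choroid plexus lists, are not described above. Alternatives were array centring, quantile normalization, level filters, other eBayes settings, no moderation, other folds and leaving out each array.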

Additional observations from a re-analysis of the deposited data

How the results depend on the processing

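No paired analysis was possible because the labels name no pairs, and the replicate number 7 that both groups hold is not said to mark one. No member was called in any fit, and the smallest limma adjusted p of a member in any of them was 0.831. Over all probe sets the count of 0 (940 at an unadjusted limma p of 0.05) became 8 in a linear model without moderation and 0 to 1 with 1 array left out. The count of members at least 1.5-fold apart without overlap, 1 with all arrays, was 1 to 3 with 1 array left out, 2 at the lower alternative fold (log2 of 0.32) and 0 at 2-fold. With 1 array left out, a fit that takes the lone array to vary like the other group, the median over the members was -0.31 (without clothianidin replicate 6) to 0.02 (without clothianidin replicate 7) and that over the wider targets -0.15 to 0.12. The Fkbp5 difference reached 0 in such fits (0 to 0.27), and the sign turned for Sgk1 (-0.12 to 0.95), Tsc22d3 (-0.36 to 0.04), Pdk4 (-0.44 to 0.08), Mt1 (-0.39 to 0.65) and Errfi1 (-0.27 to 0.12). It held for Angptl4 (-1.07 to -0.28), Cdkn1a (-0.62 to -0.27), Zbtb16 (-0.59 to -0.07) and Mt2 (0.09 to 0.24). Centring and quantile normalization kept the direction of all 10 members, moving none by over 0.11. That is large beside the smaller differences. Under quantile normalization Mt2 went from 0.17 to 0.06, Fkbp5 from 0.13 to 0.06 and Tsc22d3 from -0.16 to -0.27. Each member has 1 probe set, so averaging probe sets altered nothing. The filter at the median level kept 8 of the members and dropped Pdk4 and Angptl4.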
